A study of Mus musculus with 18 samples.

Results

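Hyaluronan synthases, hyaluronan-degrading proteins, hyaluronan-binding proteins and lubricin were followed in cultured mouse mammary normal fibroblasts (NFs). The 10 genes Has1, Has2, Has3, Hyal1, Hyal2, Cemip, Cd44, Tnfaip6, Prg4 and Vcan were chosen by symbol from the 55486 genes of the deposited count table, with no measured value in the rule. All 10 were present and all 10 passed the filter on low counts, which kept 14273 genes.

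Hyaluronan is a long unbranched sugar polymer that synthases extrude through the plasma membrane from UDP-glucuronic acid and UDP-N-acetylglucosamine. In the matrix it is organised by binding proteins such as versican and TSG-6, held at the cell surface by CD44, and cut by hyaluronidases and by CEMIP. Fibroblasts are its main source in connective tissue, and lubricin is a mucin-like glycoprotein best known from joint surfaces that also binds CD44.

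The libraries were polyadenylated RNA of NFs sorted from mammary glands of mice on an FVB/n background. As NF donors the study names WapCre-negative mice with floxed Cdh1 and a further floxed gene, or mTmG reporter mice. Its text does not say which of them gave these libraries. Per the study's methods the cells came from pooled adult female mice, lacked EpCAM, CD49f, CD45 and CD31 at the sort, were split by the surface peptidase CD26 and were grown on collagen I for a few passages. CD26- NFs and CD26+ NFs were then kept for 7 days in control conditioned medium (n = 3 each) or in conditioned medium (CM) of tumor cells (n = 6 each). The CM came from 6 lines of end-stage tumors of an invasive lobular carcinoma model, in which WapCre removes Cdh1 and a further gene in mammary epithelium, with 1 culture of either cell type per line. Replicates 1 to 3 were CD26- control, 4 to 9 CD26- CM, 10 to 12 CD26+ control and 13 to 18 CD26+ CM. The labels do not say whether the control replicates were separate cultures or separate mice, so p-values measure the spread between these libraries, which may be partly technical.

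Library totals ran from 9725723 to 14585349 counts. Of 9 fibroblast markers all were detected, with summed levels from 9810 to 21500 CPM (counts per 1000000 of the scaled library) in the CD26- libraries and from 29200 to 79500 CPM in the CD26+ libraries. All 12 epithelial markers were detected as well, although EpCAM-positive cells had been sorted out. Their summed level was 4550 to 5020 CPM in CD26- control, 2950 to 4750 CPM in CD26- CM, 742 to 1350 CPM in CD26+ control and 693 to 1650 CPM in CD26+ CM libraries. Dpp4, which encodes CD26, was at most 0.171 CPM in either control group and reached 7.80 CPM in CD26+ CM, so its RNA did not mark the sorted populations in control medium. The 7 immune markers summed to 14.6 to 29.7 CPM, with the pan-leukocyte marker Ptprc at most at 3 counts, and the 5 endothelial markers to 1.69 to 8.22 CPM, with Cldn5 at most at 1 count. Of each of these lists 1 gene was called lower in CD26+ NFs in both media, beside 25.4% of all genes in control medium and 29.3% in CM. The 4 pericyte markers summed to 144 to 161 CPM in CD26- control, 46.8 to 92.4 CPM in CD26- CM, 37.4 to 56.8 CPM in CD26+ control and 34.5 to 57.4 CPM in CD26+ CM libraries. The 6 skeletal muscle markers summed to 44.0 to 104 CPM over both CD26- groups and to 5.78 to 19.3 CPM over both CD26+ groups. The 4 adipocyte markers reached at most 1.15 CPM in a CD26- library and 15.7 CPM in a CD26+ library, and the 4 cartilage markers summed to 80.1 to 98.9 CPM in CD26- control, 55.6 to 80.8 CPM in CD26- CM, 83.5 to 91.3 CPM in CD26+ control and 53.4 to 79.4 CPM in CD26+ CM libraries.

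**Figure D1:**
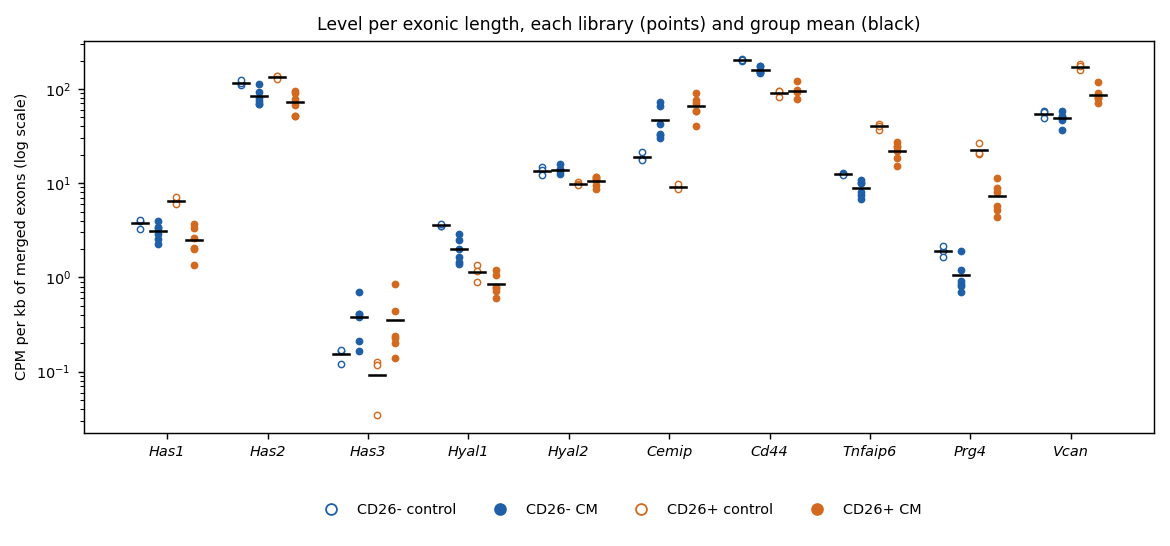
CPM per kb of merged exons (log axis) of the 10 genes in each of the 18 libraries, with open points for control medium, filled points for tumor CM and black bars for group means. Cd44, Has2 and Vcan hold the upper end in each group and Has3 the lower end, while Cemip, Tnfaip6 and Prg4 change place between groups.

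Levels of different genes were compared per kb of merged exons. In CD26- control NFs Cd44 stood first at 203 ± 6.07 CPM per kb (SD, n = 3), followed by Has2 at 117 ± 7.14, Vcan at 54.5 ± 4.87 and Cemip at 19.1 ± 2.1. In CD26+ control NFs the order was Vcan at 171 ± 12.7, Has2 at 134 ± 4.58, Cd44 at 90.3 ± 6.87, Tnfaip6 at 39.9 ± 3.07 and Prg4 at 22.7 ± 3.66 CPM per kb (SD, n = 3). Libraries of neighboring genes in these orders did not overlap. In CD26+ CM libraries the first 4 genes, Cd44, Vcan, Has2 and Cemip, lay between 96.1 ± 14.1 and 65.6 ± 17.4 CPM per kb (SD, n = 6), and each overlapped the next. Has3 was lowest in all 4 groups, between 0.0926 ± 0.0503 CPM per kb in CD26+ control and 0.379 ± 0.187 in CD26- CM. Its raw counts ran from 3 to 72 per library, so its values carry the largest counting error of the 10 genes.

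Among the synthases, Has1 and Has2 fell and Has3 rose in CD26+ NFs given tumor CM. Has1 (ENSMUSG00000003665, GRCm38 chr17:17843323-17855205, minus strand) had 29.3, 32.4 and 26.9 CPM in the CD26+ control libraries and 6.06, 10.6 and 16.7 CPM as the lowest, median and highest of 6 CD26+ CM libraries. Every CD26+ CM library lay below every CD26+ control library, a 2.62-fold fall (log2 fold change -1.39 ± 0.22 SE, FDR = 0.000175). FDR stands here and below for the Benjamini-Hochberg adjusted p of edgeR's quasi-likelihood F test over all 14273 genes. In CD26- NFs Has1 was 18.1, 18.5 and 14.7 CPM in control medium and 10.3 to 18.0 CPM, median 14.1, in CM. These groups overlapped, and the log2 difference of -0.30 ± 0.23 did not pass the test (FDR = 0.406).

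Has2 (ENSMUSG00000022367, chr15:56665627-56694539, minus strand) encodes the synthase that dominates in most mesenchymal cells, and per exonic length its level was far above that of Has1 and Has3 in each group. It had 582, 574 and 545 CPM in CD26+ control libraries against 217, 310 and 405 CPM as lowest, median and highest with CM. The groups did not overlap, and the fall was 1.84-fold (log2 -0.88 ± 0.18 SE, FDR = 0.00156). In CD26- NFs Has2 was 465, 494 and 525 CPM in control medium and 292 to 480 CPM, median 327, in CM, with a log2 difference of -0.49 ± 0.18 that missed the limit (FDR = 0.0772). Replicate 7 alone overlapped the controls, and without it the FDR was 0.0213. When only the CD26- groups were fitted Has2 was called (FDR = 0.0370). Has2os, an antisense RNA that shares 182 exonic bases with Has2 on the opposite strand, also fell in CD26+ NFs with CM (log2 -0.69 ± 0.21 SE, FDR = 0.0210). Whether strand was used in counting is not given, and without it reads of the shared bases cannot be told apart.

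Has3 (ENSMUSG00000031910, chr8:106870242-106884566, plus strand) was 0.809, 0.741 and 0.223 CPM in CD26+ control libraries and 0.894 to 5.40 CPM, median 1.48, in CD26+ CM libraries. All 6 CM libraries lay above the 3 controls, with a log2 fold change of 1.92 ± 0.63 (SE, FDR = 0.0282). The call was lost without replicate 10, 11, 12 or 14 (FDR up to 0.130) and when only the CD26+ groups were fitted (FDR = 0.0629). In CD26- NFs the values were 1.07, 0.769 and 1.08 CPM in control medium and 1.06 to 4.42 CPM in CM, and the log2 difference of 1.32 ± 0.57 did not pass (FDR = 0.126). Chtf8, which shares 352 exonic bases with Has3 on the opposite strand, was not called with CM in either cell type (FDR = 0.801 and 0.894).

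Promoters are shown for the members that fell or rose with CM in CD26+ NFs and have an entry in the RefSeq promoter table (GRCm38.p6), which held 7 of the 10. Only bases upstream of the annotated gene are printed, 5′ to 3′ on the gene's strand, and capitals mark a motif found by its letters on either strand. Positions count from the RefSeq start, with the base before it as -1.
Has1 chr17:17855206-17855438, minus strand: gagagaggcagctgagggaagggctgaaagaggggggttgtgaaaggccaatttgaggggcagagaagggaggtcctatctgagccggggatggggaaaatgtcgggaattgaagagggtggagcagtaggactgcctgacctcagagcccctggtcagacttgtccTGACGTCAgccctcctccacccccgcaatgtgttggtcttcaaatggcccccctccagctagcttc
Cemip chr7:84086506-84086755, minus strand: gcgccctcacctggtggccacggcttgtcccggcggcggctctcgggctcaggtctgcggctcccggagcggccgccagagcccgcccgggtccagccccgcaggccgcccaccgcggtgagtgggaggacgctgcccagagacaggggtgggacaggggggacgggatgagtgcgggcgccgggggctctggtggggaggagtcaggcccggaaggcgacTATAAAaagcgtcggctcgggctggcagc
Tnfaip6 chr2:52037863-52038008, plus strand: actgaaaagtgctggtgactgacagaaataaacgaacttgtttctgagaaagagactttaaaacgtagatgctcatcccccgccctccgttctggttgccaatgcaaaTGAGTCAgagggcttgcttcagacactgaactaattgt
Vcan chr13:89742513-89742762, minus strand: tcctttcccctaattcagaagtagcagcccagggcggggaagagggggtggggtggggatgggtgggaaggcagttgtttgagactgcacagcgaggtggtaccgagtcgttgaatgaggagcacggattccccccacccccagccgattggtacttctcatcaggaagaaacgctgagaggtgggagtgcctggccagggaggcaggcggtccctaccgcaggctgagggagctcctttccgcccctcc
The capitals mark a full cAMP response element (TGACGTCA) starting at -83 in Has1, a TATA box (TATAAA) at -29 in Cemip and an AP-1 site (TGAGTCA, searched as TGANTCA) at -142 in Tnfaip6. In the 250 bases upstream of 32851 RefSeq promoters, 1.55% held TGACGTCA, 12.4% held TATAAA and 6.75% held TGANTCA. Vcan held none of these motifs, nor an NF-kB site, in its 250 bases.

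Of the degrading proteins, Cemip rose with tumor CM in both cell types and Hyal1 fell in CD26- NFs, whereas Hyal2 did not pass the test with CM in either. Cemip (ENSMUSG00000052353, chr7:83932857-84086502, minus strand) encodes a hyaluronan-binding protein that fibroblasts need to depolymerise hyaluronan. It was 111, 106 and 119 CPM in CD26+ control libraries and 490, 793 and 1101 CPM as lowest, median and highest with CM. No library overlapped, and the rise was 7.17-fold (log2 2.84 ± 0.31 SE, FDR = 4.83e-06). In CD26- NFs Cemip was 223, 263 and 216 CPM in control medium and 371, 464 and 885 CPM as lowest, median and highest in CM, again without overlap (2.42-fold, log2 1.27 ± 0.28 SE, FDR = 0.00650). Both rises stayed past the limit in every fit that left out 1 library.

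Hyal1 (ENSMUSG00000010051, chr9:107576927-107581710, plus strand) is the lysosomal hyaluronidase. In CD26- NFs it was 13.3, 13.4 and 13.8 CPM in control medium and 5.28, 6.85 and 10.9 CPM as lowest, median and highest in CM. Each CM library lay below the controls (1.81-fold, log2 -0.86 ± 0.21 SE, FDR = 0.0101). Without replicate 3 the FDR was 0.0567. In CD26+ NFs Hyal1 was 5.10, 3.41 and 4.38 CPM in control medium and 2.28 to 4.52 CPM in CM, overlapping groups with a log2 difference of -0.40 ± 0.25 (FDR = 0.250). Of the 3777 exonic bases of Hyal1, 1920 are shared with Naa80 on the same strand, so reads from this stretch cannot be assigned to either gene. Naa80 also fell in CD26- NFs with CM (log2 -0.46 ± 0.14 SE, FDR = 0.0352).

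Hyal2 (ENSMUSG00000010047, chr9:107567945-107572779, plus strand), the hyaluronidase anchored at the cell surface, was 39.8 to 48.8 CPM in CD26- control and 41.1 to 52.8 CPM in CD26- CM libraries. In CD26+ NFs it was 31.2 to 33.8 CPM in control medium and 28.9 to 38.3 CPM in CM. The log2 differences with CM were 0.04 ± 0.09 in CD26- NFs and 0.11 ± 0.09 in CD26+ NFs (FDR = 0.821 and 0.426).

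**Figure D2:**
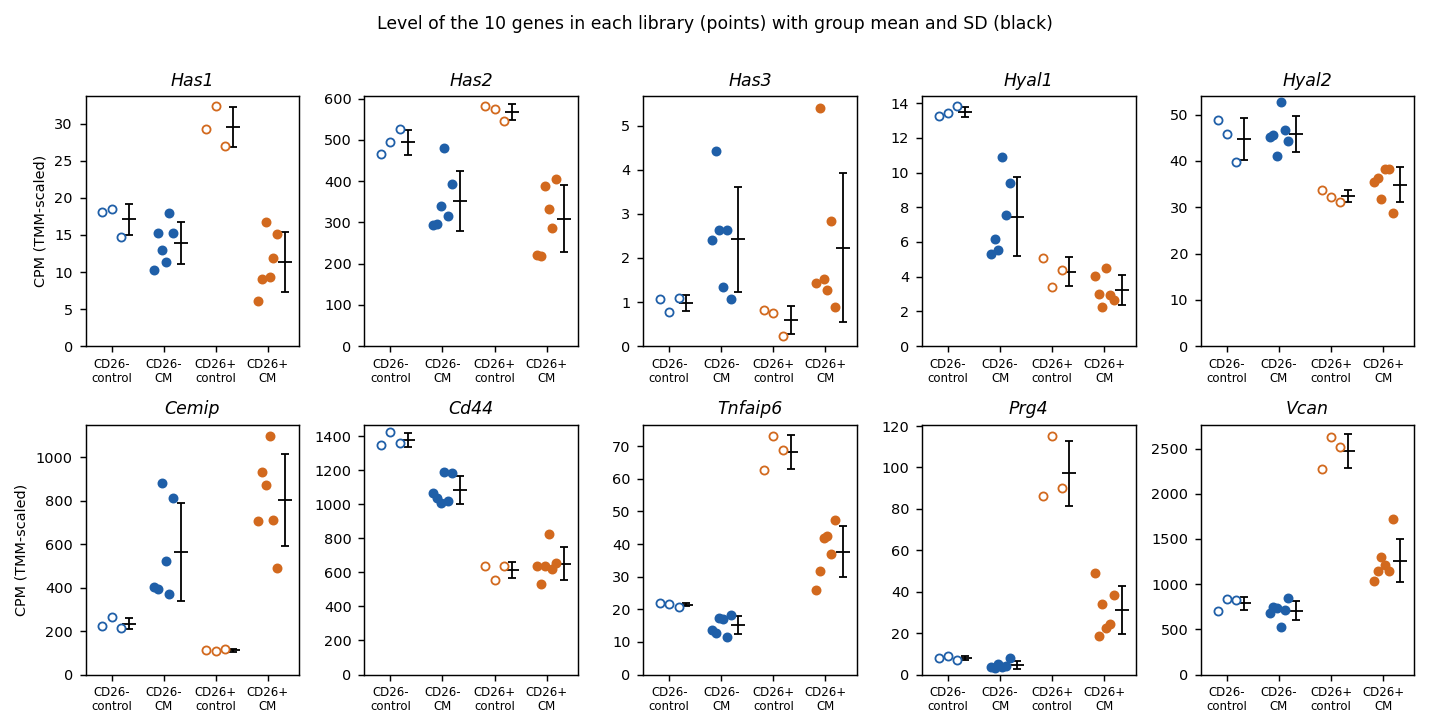
CPM of the 10 genes in each of the 18 libraries by group, with open points for control medium, filled points for tumor CM, blue for CD26- and orange for CD26+ NFs, and black marks for group mean and SD. In CD26+ NFs the 6 CM libraries lie below the controls for Has1, Has2, Tnfaip6, Prg4 and Vcan and above them for Has3 and Cemip. For CM against control medium the share of all genes without overlap was not counted.

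Among the binding proteins, Tnfaip6, Prg4 and Vcan fell with CM in CD26+ NFs and Cd44 fell in CD26- NFs. Cd44 (ENSMUSG00000005087, chr2:102811141-102901665, minus strand), the main hyaluronan receptor, was 1345, 1422 and 1359 CPM in CD26- control libraries and 1008 to 1190 CPM, median 1049, in CD26- CM libraries. These groups did not overlap, and the fall was 1.27-fold (log2 -0.34 ± 0.10 SE, FDR = 0.0246). The call was lost without replicate 1, 2 or 3 (FDR up to 0.0953). In CD26+ NFs Cd44 was 637, 558 and 640 CPM in control medium and 529 to 823 CPM, median 639, in CM, with a log2 difference of 0.09 ± 0.10 (FDR = 0.535).

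Tnfaip6 (ENSMUSG00000053475, chr2:52038009-52056686, plus strand) encodes TSG-6, a secreted protein that transfers heavy chains of inter-alpha-inhibitor onto hyaluronan. It was 62.7, 73.2 and 68.8 CPM in CD26+ control libraries and 25.9, 39.4 and 47.3 CPM as lowest, median and highest in CM. The groups did not overlap (1.81-fold lower, log2 -0.86 ± 0.15 SE, FDR = 0.000409). In CD26- NFs it was 22.0, 21.5 and 20.9 CPM in control medium and 11.6 to 18.4 CPM, median 15.4, in CM. This fall was also without overlap (log2 -0.51 ± 0.17 SE, FDR = 0.0483). It was past the limit by little: leaving out replicate 1, 2, 3, 4, 5, 8, 10, 11, 12, 15 or 17 ended the call (FDR up to 0.132).

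Prg4 (ENSMUSG00000006014, chr1:150449412-150466165, minus strand), which encodes lubricin, was 86.3, 115 and 89.9 CPM in CD26+ control libraries and 18.7, 29.2 and 48.9 CPM as lowest, median and highest in CM. The highest CM library stayed below the lowest control (3.12-fold lower, log2 -1.64 ± 0.24 SE, FDR = 8.63e-05). In CD26- NFs Prg4 was 8.13, 9.14 and 7.11 CPM in control medium and 3.02 to 8.14 CPM, median 3.82, in CM. Replicate 9 lay within the control range and the other 5 CM libraries below it, with a log2 difference of -0.84 ± 0.33 (FDR = 0.0937). Without replicate 9 the difference was -1.07 with an FDR of 0.0273, and DESeq2 also called the gene (FDR = 0.0364). Tpr, which shares 204 exonic bases with Prg4 on the opposite strand, was not called with CM (FDR = 0.678 and 0.725).

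Vcan (ENSMUSG00000021614, chr13:89655312-89742509, minus strand) encodes versican, a large chondroitin sulfate proteoglycan that binds hyaluronan through its N-terminal domain. It was 2271, 2629 and 2517 CPM in CD26+ control libraries and 1035, 1181 and 1719 CPM as lowest, median and highest in CM. No library overlapped (1.96-fold lower, log2 -0.97 ± 0.14 SE, FDR = 5.78e-05). In CD26- NFs the values were 708, 834 and 824 CPM in control medium and 525.8 to 843.9 CPM, median 725, in CM. These overlapped, with a log2 difference of -0.16 ± 0.14 (FDR = 0.484).

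Counted over the 10 genes, tumor CM raised 1 (Cemip) and lowered 3 (Hyal1, Cd44, Tnfaip6) in CD26- NFs, while 7.88% of all tested genes rose and 7.28% fell. In CD26+ NFs it raised 2 (Has3, Cemip) and lowered 5 (Has1, Has2, Tnfaip6, Prg4, Vcan), against 15.2% and 13.4% of all genes. How many of all genes had control and CM libraries without overlap was not counted. The count of 4 in CD26- NFs was 2, 2 and 1 without control replicate 1, 2 or 3. The median log2 fold change of the 10 genes was -0.32 in CD26- and -0.63 in CD26+ NFs, and over all tested genes it was 0.00519 and -0.00396. With the study's further limit of a log2 change over 2 in size, 0 of 10 were called in CD26- NFs (0.904% of all genes) and 1, Cemip, in CD26+ NFs (2.01%).

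**Figure D3:**
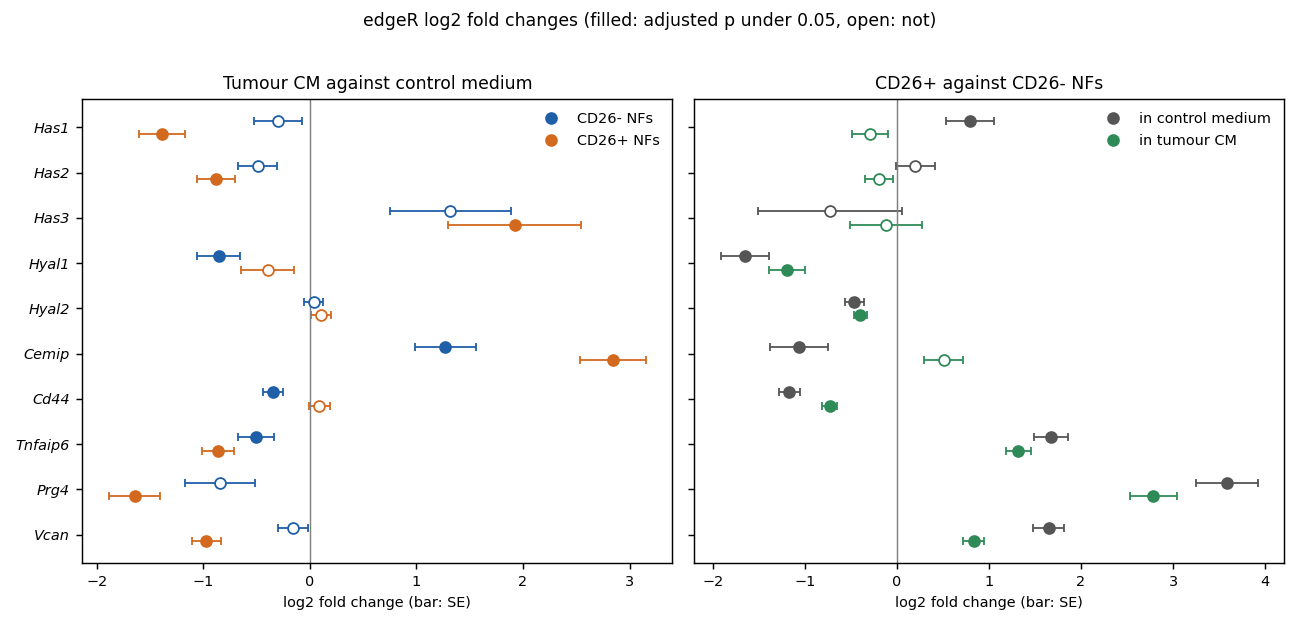
Log2 fold changes with SE of the 10 genes from edgeR, for tumor CM against control medium in each cell type (left) and for CD26+ against CD26- NFs in each medium (right). Filled points pass an FDR of 0.05. Cemip has the largest CM change, 2.84 in CD26+ NFs, and Prg4 the largest difference between cell types, 3.58 in control medium.

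The next question was whether the cell types differed in these genes without tumor factors. In control medium 4 genes, Prg4, Tnfaip6, Vcan and Has1, had more RNA in CD26+ NFs and 4 genes, Hyal1, Cd44, Cemip and Hyal2, had less. Of all tested genes 25.0% were called in the first direction and 25.4% in the second. Prg4 was 12.0-fold higher in CD26+ NFs (log2 3.58 ± 0.33 SE, FDR = 2.14e-07), the only one of the 10 past a log2 change of 2, which 5.97% of all genes passed. Tnfaip6 was 3.18-fold higher (log2 1.67 ± 0.19 SE, FDR = 1.15e-06) and Vcan 3.14-fold higher (log2 1.65 ± 0.17 SE, FDR = 4.45e-07). Has1 was 1.73-fold higher (log2 0.79 ± 0.26 SE, FDR = 0.0159).

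On the lower side, Hyal1 differed by a log2 of -1.65 ± 0.26 (FDR = 3.97e-05), Cd44 by -1.17 ± 0.12 (FDR = 3.65e-07), Cemip by -1.06 ± 0.31 (FDR = 0.00887) and Hyal2 by -0.46 ± 0.11 (FDR = 0.00130). Libraries of the 2 cell types did not overlap for any of these 8 genes, nor for 64.7% of all tested genes. Has2 and Has3 differed by log2 0.20 ± 0.21 and -0.73 ± 0.78 (FDR = 0.465 and 0.466). The Has2 libraries did not overlap either, and Has2 was called higher in CD26+ NFs when only the control groups were fitted (log2 0.19, FDR = 0.00820). The Has1 call was lost without replicate 3 or 11 (FDR up to 0.0666), and the others kept theirs in each fit that left out 1 library.

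In tumor CM 3 of the 10 genes were higher in CD26+ NFs (Prg4, Tnfaip6, Vcan) and 3 lower (Hyal1, Cd44, Hyal2), beside 29.3% of all genes in the first direction and 29.3% in the second. Prg4 was 6.89-fold higher (log2 2.79 ± 0.25 SE, FDR = 6.43e-08), the only member past a log2 change of 2 (4.16% of all genes). Tnfaip6 was 2.49-fold (log2 1.32 ± 0.13 SE, FDR = 2.47e-07) and Vcan 1.78-fold higher (log2 0.83 ± 0.12 SE, FDR = 7.82e-06). Hyal1 differed by log2 -1.19 ± 0.20, Cd44 by -0.73 ± 0.08 and Hyal2 by -0.40 ± 0.07 (FDR = 4.74e-05, 5.89e-07 and 0.000177). Cemip, lower in CD26+ NFs in control medium, was 490 to 1101 CPM in CD26+ CM and 371 to 885 CPM in CD26- CM libraries, a log2 difference of 0.51 ± 0.22 (FDR = 0.0531).

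With the CM line as a block, Cemip was called higher in CD26+ NFs in CM (log2 0.56, FDR = 0.0205), and Has1 and Has2 were called lower (log2 -0.32 and -0.21, FDR = 0.0484 and 0.0287). Without the block Cemip was also called when replicate 6, 9 or 18 was left out (FDR down to 0.00902), without a filter on low counts (FDR = 0.0401) and by DESeq2 (FDR = 0.0367), and Has1 when replicate 15 was left out (FDR = 0.0495).

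These cell-type differences go with the epithelial markers, of which 11 of 12 were called lower in CD26+ NFs in each medium and 0 were called with CM in either cell type by edgeR (1 in each at an unadjusted p under 0.05). The marker level did not overlap between cell types. Other lists moved as well: in control medium 3 of 4 pericyte markers, and in CM 1, were called lower in CD26+ NFs, 2 fell with CM in CD26- NFs, and 2 were called in the interaction. In control medium 1 of 6 skeletal muscle markers, and in CM 4, had less RNA in CD26+ NFs, and 3 rose with CM in CD26- NFs. Of 4 adipocyte markers 2 were called higher in CD26+ NFs in each medium. Of 4 cartilage markers 2 fell with CM in CD26+ NFs, 1 cartilage marker was called in the interaction with a negative difference, and 1 was called higher in CD26+ NFs in control medium. Of 9 fibroblast markers 8 were called higher in CD26+ NFs in control medium and 7 in CM, and the CM calls were 4 up and 1 down in CD26- NFs against 3 up and 4 down in CD26+ NFs. Of 5 endothelial markers 1 rose with CM in CD26- NFs. The part of the lists other than the epithelial one in the results was not tested. With the mean epithelial level as a covariate, Prg4, Tnfaip6 and Vcan stayed called in control medium (log2 3.07, 1.5 and 1.12, FDR = 0.0120, 0.0290 and 0.0438), and Has1, Hyal1, Hyal2, Cemip and Cd44 did not (FDR from 0.0632 to 0.989). In tumor CM Prg4 and Tnfaip6 stayed called (log2 2.34 and 1.17, FDR = 0.0183 and 0.0325), whereas Vcan had log2 0.36 (FDR = 0.421) and Cd44 -0.24 (FDR = 0.358). Hyal1 in CM and Hyal2 in both media turned to log2 values above 0 (0.19, 0.01 and 0.02) with an FDR of at least 0.791. In bulk RNA fewer cells of a type and less RNA per cell cannot be told apart. The CM calls above were kept with this covariate, except Tnfaip6 in CD26- NFs (FDR = 0.0608).

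The difference between the CM effects of the cell types was tested as an interaction, CD26+ minus CD26-. It was called for Cemip, whose rise was larger in CD26+ NFs (log2 1.57 ± 0.38 SE, FDR = 0.0201), and for Vcan and Has1, whose values moved further down in CD26+ NFs (-0.82 ± 0.20, FDR = 0.0205, and -1.09 ± 0.32, FDR = 0.0477). Of all genes 4.53% were called with a positive difference, as was 1 of the 10, and 3.01% with a negative one, as were 2 of the 10. None of the 10 passed a log2 difference of 2, which 0.392% of all genes did. In CM the libraries of the cell types overlapped for Has1 and Cemip and stayed apart for Vcan.

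For Cd44 the interaction was 0.44 ± 0.14 (FDR = 0.0629), for Prg4 -0.80 ± 0.42 (FDR = 0.244), for Has2 -0.39 ± 0.26 (FDR = 0.378) and for Tnfaip6 -0.35 ± 0.23 (FDR = 0.355). With the CM line as a block the FDR was 0.00714 for Cd44, 0.0398 for Prg4 and 0.0496 for Has2, so 6 of the 10 were then called, 2 with a positive and 4 with a negative difference, beside 9.42% and 8.21% of all genes. Cd44 was also called by DESeq2 (FDR = 0.0339) and without replicate 7 or 14 (FDR = 0.0484 and 0.0363). The Cemip call was lost without replicate 2, 10 or 11 (FDR up to 0.0700) and the Vcan call without replicate 1 or 11 (FDR up to 0.0611). The Has1 call was lost without replicate 1, 2, 3, 5, 6, 8, 9, 10, 11, 12, 14, 16 or 17 (FDR up to 0.124) and with the epithelial covariate (FDR = 0.0603).

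**Figure D4:**
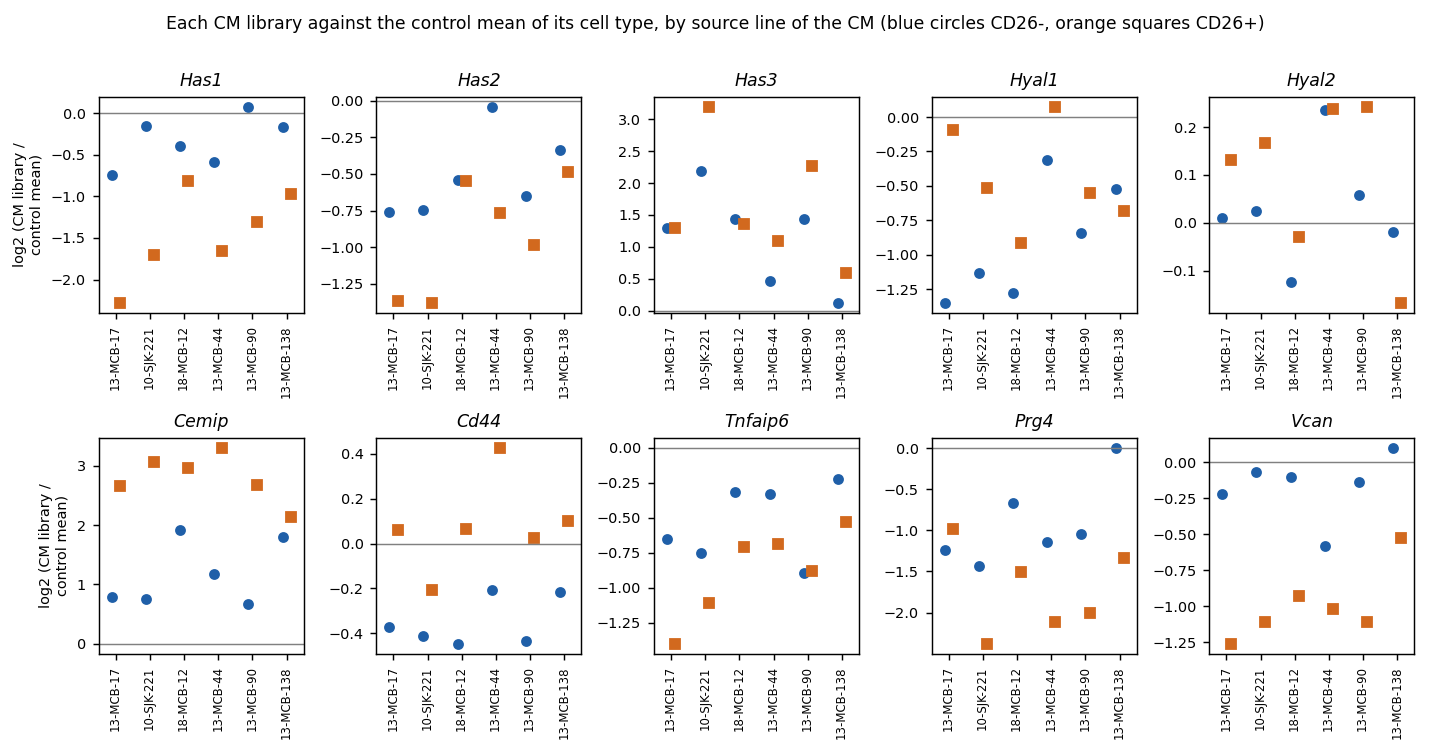
Log2 ratio of each CM library to the control mean of its cell type, by the line that gave the CM, with blue circles for CD26- and orange squares for CD26+ NFs. Each line has 1 library per cell type. Has3 is highest with line 10-SJK-221 and lowest with 13-MCB-138 in both cell types.

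Whether the source line of the CM shifted a gene in both cell types was tested over the 12 CM libraries with cell type as a term. Only Has3 of the 10 was called (FDR = 0.0174), where 6.56% of 13344 tested genes were. Has3 was highest with line 10-SJK-221, at 4.42 CPM in CD26- and 5.40 CPM in CD26+ NFs, and lowest with 13-MCB-138, at 1.06 and 0.894 CPM. Line 13-MCB-90 was next below the highest in both cell types, at 2.64 and 2.84 CPM, with 18-MCB-12 close to it in CD26- NFs (2.63 CPM). Without line 10-SJK-221 the FDR of Has3 was 0.126, and with a minimum mean of 5 CPM Has3 was not tested. Has2 was called as well without line 18-MCB-12 or 13-MCB-138 (FDR = 0.0406 and 0.0318), and Prg4 without 13-MCB-17 (FDR = 0.0188).

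At an unadjusted p under 0.05 in the edgeR fit, 8 of the 10 genes passed the line test, beside 22.5% of all genes. Has2 had the next smallest FDR (0.0626), with 217 and 220 CPM in CD26+ NFs given 10-SJK-221 and 13-MCB-17 and 405 CPM with 13-MCB-138. In CD26- NFs the same 2 lines were lowest as well (295 and 292 CPM), but line 13-MCB-44 was highest (480 CPM). Tnfaip6 was highest with 13-MCB-138 in both cell types, at 18.4 and 47.3 CPM (FDR = 0.0718), and so was Vcan, at 844 and 1719 CPM (FDR = 0.171). Prg4 was lowest with 10-SJK-221 in both cell types, at 3.02 and 18.7 CPM (FDR = 0.105). Cd44 and Hyal1 were highest with 13-MCB-44 in both (FDR = 0.160 and 0.259). Cemip gave an FDR of 0.634, and its lines were ordered differently: in CD26+ NFs 13-MCB-138 was lowest at 490 CPM, and in CD26- NFs it was second highest at 813 CPM. Without a filter on low counts 9 of the 10 were called for the line, beside 8.33% of all genes, and by DESeq2 5 were, beside 10.3%.

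Further genes of the pathway came from 5 lists with 43 genes, all in the table, of which 25 passed the filter on low counts. With CM 7 of the 25 were called in CD26- NFs (5 up, 2 down) and 13 in CD26+ NFs (11 up, 2 down). Over all tested genes the shares up and down were 7.88% and 7.28% in CD26- NFs and 15.2% and 13.4% in CD26+ NFs. Without control replicate 10, 11 or 12 the count in CD26+ NFs was 9, 10 and 9. Without control replicate 1, 2 or 3 the count in CD26- NFs was 3, 4 and 3. Among the calls in CD26- NFs, that of Layn was lost without any of the 3 (FDR from 0.0605 to 0.0774), that of Adamts4 without replicate 1 or 3 (FDR = 0.104 and 0.0645), that of Ptx3 without 2 or 3 (FDR = 0.0506 and 0.0750) and that of Stab1 without 1 (FDR = 0.0731). Among matrix partners, Itih5, a member of the heavy chain family, rose in CD26- NFs from 1.72 ± 0.0868 CPM in 3 control libraries to 7.21 ± 1.74 CPM (SD) in 6 CM libraries (log2 2.07 ± 0.41 SE, FDR = 0.00337) and from 3.19 ± 1.19 to 23.7 ± 8.76 CPM in CD26+ NFs (log2 2.88 ± 0.35 SE, FDR = 1.60e-05). Ptx3, a pentraxin that binds TSG-6 and heavy chains in the hyaluronan matrix, rose from 95.1 ± 4.89 to 192 ± 69.2 CPM and from 304 ± 17.6 to 906 ± 226 CPM (log2 1.01 ± 0.26 and 1.58 ± 0.26 SE, FDR = 0.0137 and 0.000257). Tnfaip6, whose product acts with these proteins, fell in both comparisons.

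Of the proteases that cleave versican, Adamts9 rose in CD26- and CD26+ NFs (log2 1.5 ± 0.19 and 1.73 ± 0.19 SE, FDR = 0.000194 and 4.74e-06) and Adamts4 fell in both (-0.44 ± 0.12 and -0.43 ± 0.12 SE, FDR = 0.0187 and 0.0109). Adamts15 rose in CD26+ NFs, from 2.42 ± 0.575 to 14.0 ± 8.14 CPM (log2 2.53 ± 0.60 SE, FDR = 0.00461). Among receptors, Layn, which encodes the hyaluronan receptor layilin, rose in both cell types (log2 0.64 ± 0.18 and 0.83 ± 0.17 SE, FDR = 0.0204 and 0.00169). The scavenger receptor gene Stab1 fell in CD26- NFs (log2 -1.34 ± 0.32 SE, FDR = 0.00919). Tlr2 and Tlr4, toll-like receptor genes with roles well beyond hyaluronan, rose in CD26+ NFs (log2 0.95 ± 0.18 and 0.56 ± 0.13 SE, FDR = 0.000876 and 0.00464). The link protein gene Hapln4, of the matrix partners, also rose in CD26+ NFs (log2 0.47 ± 0.17 SE, FDR = 0.0398).

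Of 6 precursor enzymes tested, edgeR called 0 with CM in CD26- NFs (3 at an unadjusted p under 0.05) and 1 in CD26+ NFs (4 at an unadjusted p under 0.05). For these CM tests the share of all genes at that unadjusted limit was not counted. The called gene was Ugdh (log2 0.56 ± 0.16 SE, FDR = 0.0122), which makes UDP-glucuronic acid. Uap1, named here after its values were seen, was 275 to 290 CPM in CD26- control and 112 to 246 CPM in CD26- CM libraries, without overlap (log2 -0.71 ± 0.27 SE, FDR = 0.0884). It was called when only the CD26- groups were fitted (FDR = 0.0372) or without replicate 9 or 13 (FDR = 0.0448 and 0.0431). Of the breakdown list, Gusb, the lysosomal beta-glucuronidase, was called in both cell types with log2 changes of 0.13 ± 0.04 and 0.15 ± 0.04 (FDR = 0.0436 and 0.0159). Of the 18 fits without 1 library, 14 ended the call of Gusb in CD26- NFs (FDR up to 0.153). Hmmr fell in CD26+ NFs (log2 -0.91 ± 0.22 SE, FDR = 0.00537) and is named here after its values were seen. The library given CM of 13-MCB-138 stood at 55.2 CPM, inside the control range of 52.3 to 56.3 CPM, and the other 5 CM libraries at 17.0 to 28.0 CPM. Without that library the log2 change was -1.20 (FDR = 4.03e-07). Hmmr is also a mitotic spindle gene. The interaction was called for 1 of the 25 genes, Tlr2 (log2 1.29 ± 0.24 SE, FDR = 0.00583), beside 4.53% of all genes with a positive and 3.01% with a negative difference. With the CM line as a block 6 of the 25 were called, beside 9.42% of all genes with a positive and 8.21% with a negative difference. Without replicate 18 and with no block 4 of the 25 were called, a fit for which no share of all genes was counted.

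**Figure D5:**
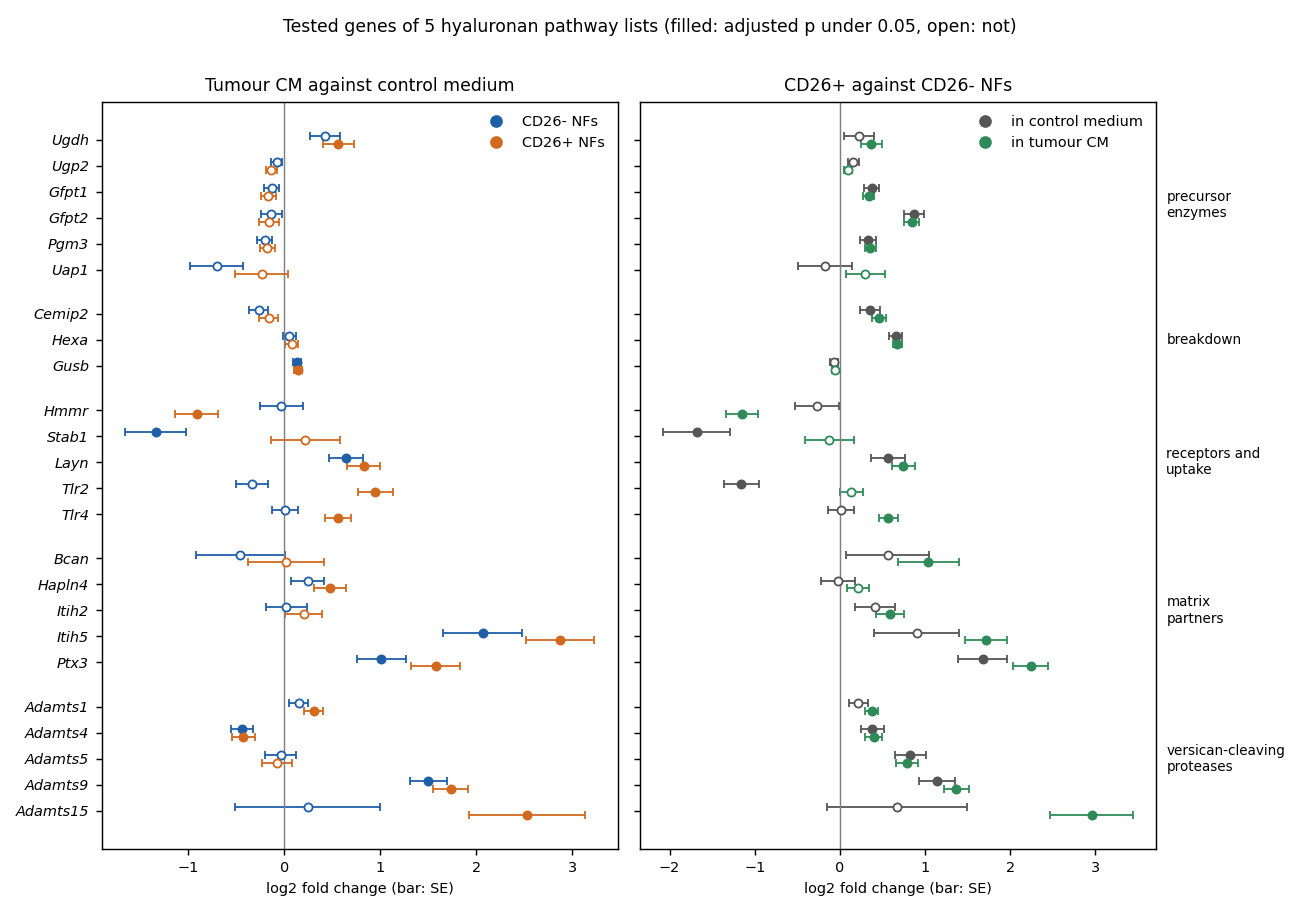
Log2 fold changes with SE of tested genes of the 5 pathway lists, for tumor CM against control medium (left) and for CD26+ against CD26- NFs (right), with filled points past an FDR of 0.05. Itih5, Ptx3, Layn and Adamts9 are filled and above 0 with CM in both cell types, and Gfpt2, Hexa, Ptx3 and Adamts9 are filled and above 0 between cell types in both media.

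Between cell types in control medium, 13 of the 25 pathway genes were called, 11 of them with more RNA in CD26+ NFs. This count was 20 when only the control groups were fitted, 10 without replicate 1, 2 or 11, and up to 15 without replicate 18. In tumor CM 19 were called, 18 of them with more RNA in CD26+ NFs. In the fit of all 18 libraries, the shares of all genes with more and less RNA there were 25.0% and 25.4% in control medium and 29.3% and 29.3% in CM. For the fits of only the control groups or without 1 library these shares were not counted. The precursor enzymes Gfpt2, Gfpt1 and Pgm3, which lead to UDP-N-acetylglucosamine, were higher in both media, with Gfpt2 at log2 0.87 ± 0.12 in control medium and 0.84 ± 0.09 in CM (FDR = 1.38e-05 and 2.54e-07). Gfpt1 was at log2 0.38 ± 0.09 and 0.34 ± 0.06 (FDR = 0.00184 and 0.000161) and Pgm3 at 0.33 ± 0.09 and 0.36 ± 0.07 (FDR = 0.00566 and 0.000136). Hexa, a lysosomal hexosaminidase subunit, was higher by log2 0.65 ± 0.08 and 0.68 ± 0.05 (FDR = 2.48e-06 and 1.98e-08). Cemip2, a membrane-bound relative of Cemip, was higher by log2 0.35 ± 0.11 and 0.46 ± 0.08 (FDR = 0.0155 and 0.000100). Ptx3 was higher by log2 1.68 ± 0.29 and 2.24 ± 0.21 (FDR = 0.000112 and 7.41e-08), and Adamts9 by 1.14 ± 0.21 and 1.37 ± 0.14 (FDR = 0.000215 and 3.01e-07). Adamts5 was higher by log2 0.83 ± 0.18 and 0.79 ± 0.13 (FDR = 0.00110 and 4.88e-05), and Layn by 0.56 ± 0.20 and 0.75 ± 0.14 (FDR = 0.0248 and 0.000137). Adamts4 was higher by log2 0.38 ± 0.14 in control medium and by 0.40 ± 0.10 in CM (FDR = 0.0277 and 0.00215), the latter value named after it was seen. In tumor CM Tlr4 and Itih2 were called higher (log2 0.57 ± 0.11 and 0.59 ± 0.16 SE, FDR = 0.000201 and 0.00486). Itih5 passed in tumor CM (log2 1.71 ± 0.25 SE, FDR = 1.12e-05), as did Adamts15 (2.96 ± 0.48, FDR = 4.54e-05). The genes with less RNA in CD26+ NFs were Tlr2 and Stab1 in control medium (log2 -1.16 ± 0.20 and -1.68 ± 0.39 SE, FDR = 0.000125 and 0.00160) and Hmmr in CM (-1.15 ± 0.19, FDR = 4.61e-05). With the epithelial covariate 1 of the 25 was called in control medium (Gfpt2) and 4 in tumor CM (Gfpt2, Hexa, Ptx3 and Itih5), and the other genes named here lost their calls. Stab1 in control medium then stood at log2 0.0091 (FDR = 0.996), Tlr2 at -0.63 (FDR = 0.397), and Hmmr in CM at -1.51 (FDR = 0.0623). How many of all genes were called with this covariate was not counted, so the lower counts cannot be read as particular to these genes.

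The line test called 4 of the 25 genes, among them 3 precursor enzymes, Uap1 (FDR = 0.00266), Ugdh (FDR = 0.0259) and Gfpt2 (FDR = 0.0267), and Adamts15 (FDR = 0.0492), where 6.56% of 13344 genes were called. Leaving out 1 line changed the count of 4 to 1 without 13-MCB-44, to 8 without 13-MCB-138 and to 2 without any of the other lines. Uap1, which makes UDP-N-acetylglucosamine, was lowest with line 13-MCB-17, at 112 CPM in CD26- and 103 CPM in CD26+ NFs, and highest with 13-MCB-138, at 246 and 328 CPM. Ugdh ran the other way in CD26+ NFs, with 663 and 649 CPM for 10-SJK-221 and 13-MCB-17 and 391 CPM for 13-MCB-138.

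Of the 18 list genes that did not pass the filter, Hyal4, Hyal5 and Spam1 had 0 counts in all libraries, Hyal6 had at most 1, Lyve1 at most 3 and Stab2 at most 5 counts. Acan, the aggrecan gene, had at most 38 counts in a library.

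The genes whose log2 CPM followed 4 of the members most closely over the 18 libraries were named by Pearson's r among 11125 genes, as a description. For Has1 these were Fam126a (r = 0.918), Edem1 (r = 0.890) and Lrrn2 (r = 0.890). For Has2 they were Reep5 (r = 0.957), Wnt5a (r = 0.948) and Klf13 (r = 0.943). For Tnfaip6 they were Pxk (r = 0.989), Txndc5 (r = 0.985) and Bag3 (r = 0.983), and for Prg4 Tshz2 (r = 0.985), Gfra1 (r = 0.980) and Ssc5d (r = 0.978). The points share the 4 groups, so these values carry the differences between groups as well as those between libraries.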

How the data were processed

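Gene expression was measured by stranded single-end mRNA sequencing in 18 libraries of mouse mammary NFs. The authors deposited raw, not normalized counts, 1 row per Ensembl gene and 1 column per library. The submitters' processing notes name HISAT2 2.1.0, HTSeq and GRCm38. How HTSeq treated strand and overlapping genes is not given in the sources used here. The methods describe tumor-cell CM collected in serum-free medium for a transwell assay, without saying whether the CM of these cultures was made that way. Of the table's genes, 99.4% of those found in GENCODE M21 had the same span there, and exonic lengths were taken from that annotation. 1 row without a gene, with 0 counts, was left out.

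Genes were kept with filterByExpr by group, scaled with TMM and tested in edgeR 4.0.16 (R 4.3.3, limma 3.58.1) by quasi-likelihood F tests on 1 model of the 4 group means. Calls were made at a Benjamini-Hochberg FDR below 0.05. The line of the CM was tested over the 12 CM libraries with cell type as a term. CPM are counts per 1000000 of the TMM-scaled library, and log2 CPM used a prior count of 2. The study itself used DESeq2 with a log2 limit of 2 on top of the FDR.

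Residuals from the group means correlated between CD26- and CD26+ libraries of the same CM line with r from 0.247 to 0.406 in 6 pairs, and from -0.315 to 0.242 in 30 pairs of other lines. The line therefore paired the samples, and it was used as a block in an alternative. Counts of replicates of a group differed by a chi-square of at least 3.05 per degree of freedom (counting error alone gives 1), so no library was a copy. Alternatives were DESeq2 1.42.0, RLE scaling, other filters on low counts (none, or a group mean from 5 CPM upward), leaving out each library or line, fitting only the 2 groups compared, and the mean log2 CPM of 12 epithelial markers as a covariate. The tests were checked on simulated counts.

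All 10 members are named. From each pathway list up to 3 called genes with the smallest p were named per comparison, and genes named for another reason are marked as such. Some items that this rule or the description of the tumor model would name are not reported here, though counts over the lists include them. The members and lists were chosen with earlier results of these data known. Spread between libraries may be biological, technical or both, and in the CM groups it includes differences between source lines. The labels give no batch.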

Additional observations from a re-analysis of the deposited data

Results flagged for a closer look

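In 4 genes the CM effect differed between CD26+ and CD26- NFs by the interaction term of the edgeR fit, given as CD26+ minus CD26-. For Cemip the difference was 1.57 on the log2 scale (FDR = 0.0201), with a rise in all 6 CM libraries of both cell types. For Vcan it was -0.82 (FDR = 0.0205), with all 6 CD26+ CM libraries below their controls and overlapping groups in CD26- NFs. For Has1 it was -1.09 (FDR = 0.0477), and 13 of the 18 fits without 1 library ended this call. For Tlr2, a toll-like receptor gene, it was 1.29 (FDR = 0.00583), with 7.92 ± 1.27 CPM (SD, n = 3) in control medium and 15.3 ± 2.56 CPM (SD, n = 6) in CM in CD26+ NFs, and 17.6 ± 3.65 and 13.9 ± 2.71 CPM in CD26- NFs. The Tlr2 call held in each of the 18 fits without 1 library (FDR from 0.00157 to 0.0344). Among the 10 members, 0 of the 20 groups of CM libraries held a library that stood apart from the other 5 by Dixon's test at the 95% level. Among 62 groups, those of the named pathway genes included, 4 did, where chance gives about 1 in 20. Hmmr stood at 55.22 CPM in CD26+ CM replicate 18, above the other 5. Hexa was highest in CD26+ CM replicate 15 at 106.5 CPM. In CD26- CM replicate 4, Adamts15 was highest at 5.525 CPM and Adamts5 lowest at 17.13 CPM.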

How the results depend on the processing

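Directions and calls of the 10 genes were the same with RLE scaling in all 60 results. Among the settings below, counts are of the 10 members and of the 25 tested pathway genes, and the cause of a change was not tested. Shares of all genes were counted for these settings only where they are given above. With a log2 limit of 2 beside the FDR, members called were 0 and 1 for CM in CD26- and CD26+ NFs, 1 and 1 between cell types in control medium and CM and 0 for the interaction. The pathway genes were then 1, 2, 0, 2 and 0. With the epithelial covariate 3 members and 1 pathway gene were called between cell types in control medium, and 2 and 4 in tumor CM. Direction turned with that covariate for Hyal2 (log2 0.0077 in control medium and 0.0157 in CM), Hyal1 in CM (0.19) and Stab1 in control medium (0.0091). This covariate did not overlap between the cell types, so the fit rests on its spread within groups. With the CM line as a replicate block 6 members and 6 pathway genes were called for the interaction. In the fit of only the control groups 20 pathway genes were called between cell types. Without a filter 2 pathway genes were called for the interaction, as by DESeq2, and the line test called 9 members and 12 pathway genes. DESeq2 called 5 and 8 for the line, and with a minimum group mean of 5 CPM 0 members were called (the called gene, Has3, was then not tested). Leaving out 1 library gave 1 to 5 members and 3 to 9 pathway genes for CM in CD26- NFs, and 0 to 4 members and 1 to 4 pathway genes for the interaction. Members called there were 1 without replicate 3 for CM in CD26- NFs and 0 without replicate 11 for the interaction. Leaving out 1 line gave 0 to 2 members and 1 to 8 pathway genes for the line. Among results not called, log2 values of Hyal2 ran from -0.0416 to 0.108 for CM in CD26- NFs and from -0.0099 to 0.14 for the interaction, and those of Has3 between cell types in CM from -0.62 to 0.15. Low counts limit Has3 (3 to 72 per library) most.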
